A study of Homo sapiens with 12 samples.

Results

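The 9 genes described here carry out iron uptake (TFRC, SLC11A2), iron storage and its release (FTL, FTH1, NCOA4), iron export (SLC40A1), iron sensing (ACO1, IREB2) and haem breakdown (HMOX1). They were picked by name, with earlier results of these data known. Every probe set annotated to 1 of these symbols alone was used, and where a gene had several, the one with the highest mean across all 12 arrays gave its value. Of the 9 genes, 6 have values, from 11 of the 22215 probe sets, out of 11963 genes measured in all. FTH1, SLC40A1 and IREB2 are not analysed here.

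Cells take up iron mainly as transferrin bound to the transferrin receptor TFRC, and SLC11A2 (DMT1) carries the freed iron across the membrane of endosomes. Iron not used at once is stored in ferritin, a shell of heavy (FTH1) and light (FTL) chains, which NCOA4 carries to lysosomes for breakdown, while HMOX1 releases iron from haem. When iron is short, the iron regulatory proteins ACO1 (IRP1) and IREB2 (IRP2) bind hairpins called iron-responsive elements, which keeps TFRC mRNA stable and blocks translation of ferritin mRNA. Loosely held iron drives the lipid peroxidation of ferroptosis, a form of cell death that lack of cystine can start, and HIF is known to act on TFRC and HMOX1 transcription.

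RNA came from RCC4, a clear cell renal carcinoma line that lacks functional VHL, the protein that marks the alpha subunits of hypoxia-inducible factors (HIF) for degradation. The 4 groups of 3 single-colour arrays were RCC4 with VHL reintroduced in cystine-deprived DMEM (VHL deprived) or full DMEM (VHL control), and RCC4 with vector only in cystine-deprived DMEM (Vec deprived) or full DMEM (Vec control). All groups spent 6 h in their medium, which held 10% serum and antibiotics, and every group shares the RCC4 background. The labels name dialysed serum for the deprived medium only, so a change of serum cannot be told apart from the loss of cystine if the control medium held undialysed serum. Whether the lines are clones or pools is not given in the sources used here. The labels call the arrays biological replicates without saying that each came from its own culture, so p-values measure the spread between these arrays.

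The sequences shown first are the stretches before the start of 2 genes that differed between the lines, TFRC and SLC11A2, and of FTL, which differed little. They come from RefSeq on build GRCh38.p14 and run 250 bases up to the start of transcription, 5′ to 3′ on the strand of the gene. Capitals mark the core of the hypoxia response element, ACGTG or GCGTG, on either strand.
TFRC (chr3:196082091-196082340, minus strand): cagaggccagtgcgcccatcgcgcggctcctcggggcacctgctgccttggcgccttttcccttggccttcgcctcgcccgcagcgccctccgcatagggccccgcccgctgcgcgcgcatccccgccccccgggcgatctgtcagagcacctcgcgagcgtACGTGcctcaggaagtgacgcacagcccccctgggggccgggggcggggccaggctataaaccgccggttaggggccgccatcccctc
SLC11A2, 1 of its 4 windows (chr12:51026385-51026634, minus strand): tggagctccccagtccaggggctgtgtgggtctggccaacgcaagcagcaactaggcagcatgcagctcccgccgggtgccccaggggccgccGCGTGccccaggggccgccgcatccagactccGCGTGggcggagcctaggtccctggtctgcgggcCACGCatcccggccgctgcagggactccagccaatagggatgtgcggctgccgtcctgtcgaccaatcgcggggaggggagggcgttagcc
FTL (chr19:48965059-48965308, plus strand): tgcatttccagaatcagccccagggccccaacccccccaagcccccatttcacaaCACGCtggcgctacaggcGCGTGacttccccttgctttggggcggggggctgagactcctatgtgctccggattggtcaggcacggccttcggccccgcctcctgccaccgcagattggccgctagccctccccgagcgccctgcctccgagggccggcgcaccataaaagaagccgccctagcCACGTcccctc
The TFRC stretch holds 1 core, and the SLC11A2 and FTL stretches hold 3 each. The SLC11A2 window shown is the one with the most cores. Another of its windows holds 1 core before the start, another holds 1 after it, and the last holds none. Of the 35116 RefSeq promoter windows, which run from 250 bases before to 50 after a start, 21.41% hold ACGTG and 36.54% hold GCGTG. These matches are descriptions of the letters and not binding sites.

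Both strands of the windows of the 5 measured genes that have one (TFRC, FTL, SLC11A2, ACO1 and NCOA4) were also searched for the AP-1 site TGACTCA, the antioxidant response core TGACNNNGC, the amino acid response core TGATGNAA and the E-box CACGTG, which contains the hypoxia core ACGTG. These are held by 4.95%, 13.35%, 3.62% and 7.26% of all windows. The only matches in these 5 genes were 1 antioxidant core in a window of NCOA4, 24 bases after the start, and 1 amino acid response core in another SLC11A2 window. The loop core CAGTG of the iron-responsive element, searched on the transcribed strand and held by 32.15% of windows, lies 39 bases into the FTL transcript. It also occurs in the TFRC window, at position -243 from the start, and in a window of NCOA4. Bases 21 to 50 of that transcript, in its 5′ untranslated region, are shown because this stretch includes the hairpin loop that the iron regulatory proteins are known to bind, with the loop core in capitals.
FTL (chr19:48965329-48965358, plus strand): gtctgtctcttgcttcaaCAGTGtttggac

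Values are log2 expression as deposited, between 3.26 and 14.79 over all probe sets, with array medians between 7.12 and 7.18. limma fitted the 4 group means to the 12 arrays together, with Benjamini-Hochberg adjustment of p-values across all 11963 genes. "Called" means an adjusted p under 0.05. Errors after ± are SE for differences and SD (n = 3) for group means. The single probe set for VHL was dim, with means of 5.94 in VHL deprived, 5.99 in VHL control, 5.99 in Vec deprived and 5.85 in Vec control arrays. For it, VHL minus Vec was 0.14 ± 0.05 in control medium (limma adjusted p = 0.0532) and -0.05 ± 0.05 in deprived medium (limma adjusted p = 0.475). It was called in neither medium, so this probe set does not show the reintroduced gene. Of 9 measured HIF targets listed as a check of the line labels, 8 were called lower in VHL than in Vec cells in both media. Over all genes 23.0% were called lower in each medium. The median log2 difference of the 9 targets was -2.08 in deprived and -2.28 in control medium. Of 11 measured renal markers, 8 lay above 6.46, the level under which 40% of all probe sets fall, while LRP2, CUBN and AQP1, markers of the mature proximal tubule, lay under it. None of the 5 leukocyte or 5 endothelial markers and 1 of 4 erythroid markers lay above that level.

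On cystine deprivation TFRC rose in VHL cells and was not called in Vec cells, while HMOX1 rose in both. In VHL cells TFRC rose 1.49-fold (log2 0.57 ± 0.06, limma adjusted p = 4.42e-05) and HMOX1 rose 1.37-fold (0.45 ± 0.09, limma adjusted p = 0.00783). In Vec cells HMOX1 rose 1.67-fold (0.74 ± 0.09, limma adjusted p = 5.7e-04), and TFRC gave -0.02 ± 0.06 with a 95% interval from -0.14 to 0.11. The TFRC responses differed between the lines by 0.59 ± 0.08 (VHL minus Vec, limma adjusted p = 0.01). SLC11A2, FTL, NCOA4 and ACO1 were not called in either line.

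Of the 6 measured genes, 2 rose in VHL cells, where 11.6% of all genes were called and 6.16% were called higher (737 genes, or 550 against 873 lower with each array centred on its median). In Vec cells 1 of 6 rose, where 4.18% of all genes were called and 2.11% were called higher. For the difference between the responses 1 of 6 was called, against 0.134% of all genes, 16 in number, among which TFRC ranked 9 by p, and 0.125% were called higher. The median log2 response of the 6 genes was 0.13 in VHL cells and 0.02 in Vec cells, beside 0.01 in VHL cells and 0.01 in Vec cells over all genes. RNA was measured in bulk, so fewer cells with a transcript and less of it per cell cannot be told apart.

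**Figure D1:**
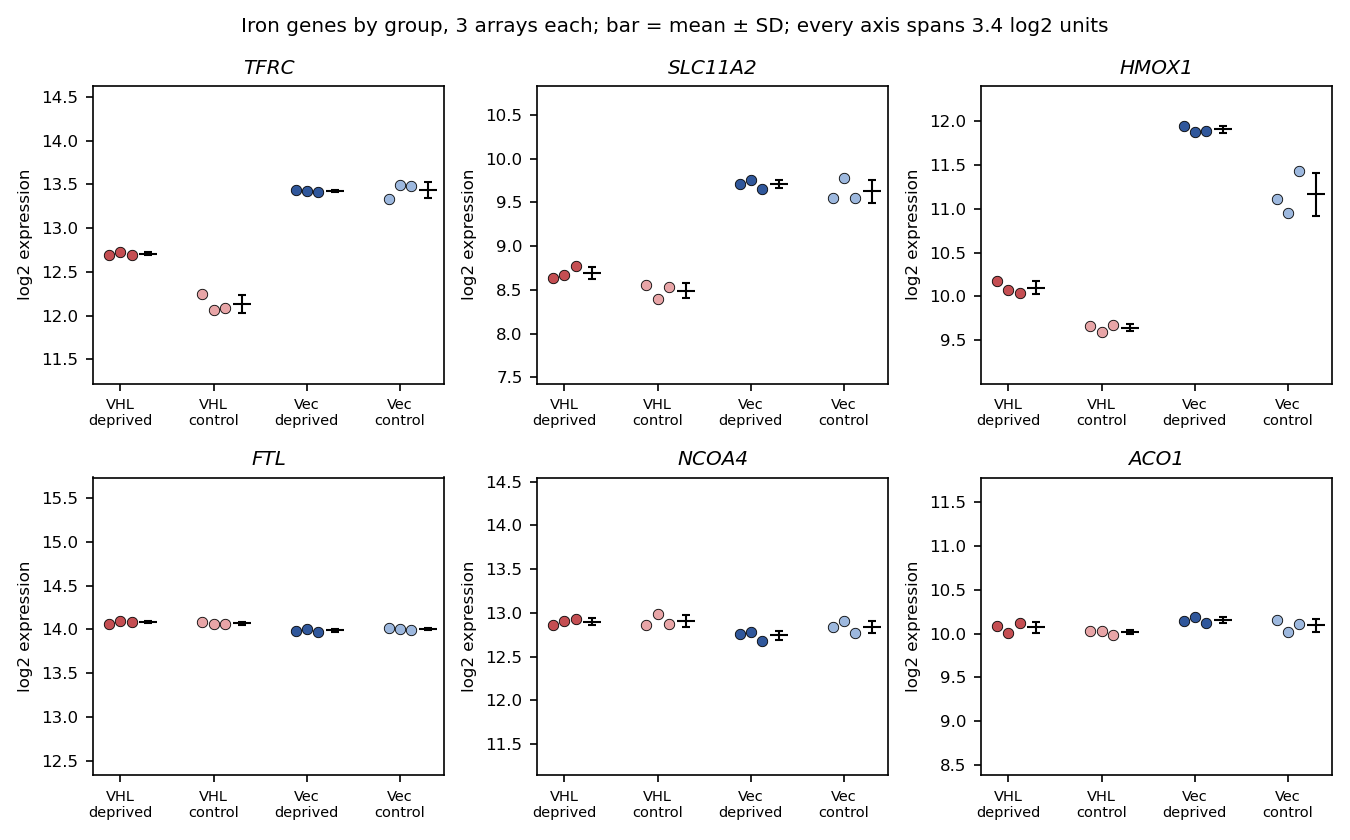
Log2 expression of the 6 measured iron genes on each array (points) with the group mean ± SD (bar), for VHL deprived, VHL control, Vec deprived and Vec control cells. TFRC, SLC11A2 and HMOX1 were lower in VHL than in Vec cells in both media, TFRC and HMOX1 rose on deprivation in VHL cells, and FTL, NCOA4 and ACO1 lay within narrow ranges.

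TFRC, the receptor that brings transferrin-bound iron into the cell, read 12.69, 12.73 and 12.70 in VHL deprived arrays and 12.25, 12.07 and 12.08 in VHL control arrays. In Vec cells it read 13.43, 13.42 and 13.41 in deprived medium and 13.33, 13.49 and 13.48 in control medium. All 3 deprived arrays lay above all 3 control arrays in VHL cells, where 30.6% of all genes had media that did not overlap, while the media overlapped in Vec cells. Every VHL array lay below every Vec array. The order of group means was Vec control (13.44 ± 0.09), Vec deprived (13.42 ± 0.01), VHL deprived (12.71 ± 0.02) and VHL control (12.13 ± 0.10), with overlap only between the first 2.

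The other TFRC probe set, 207332_s_at, gave a larger response in VHL cells. It read 12.17, 12.04 and 12.02 in VHL deprived arrays and 11.19, 11.16 and 11.26 in VHL control arrays, a rise of 0.87 ± 0.05 (limma adjusted p over each probe set = 4.01e-07). In Vec cells it read 13.09, 13.12 and 13.15 in deprived medium and 13.08, 13.01 and 13.04 in control medium, a difference of 0.07 ± 0.05 (limma adjusted p = 0.578) although the media just failed to overlap. The responses of this probe set differed by 0.80 ± 0.08 between the lines (VHL minus Vec, limma adjusted p = 5.49e-04). Both probe sets are among the brightest on the arrays, with 0.896% and 1.29% of all probe sets above them in Vec control cells, where the brightest probe set stood at 14.70. The part of a loss of range at high signal in the flat Vec response was not tested. Of the 9 HIF targets, 4 rose on deprivation in VHL cells, where 6.16% of all genes were called higher. None of the 9 was called in Vec cells, where 4.18% of all genes were called. None was called for the difference of the responses either, where 0.134% of all genes were called. VEGFA, the angiogenic growth factor, rose by 0.75 (limma adjusted p = 3.77e-04), ADM by 0.41, SLC2A1 by 0.28 and CA12 by 0.14 in VHL cells. Their part in the TFRC response was not tested.

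HMOX1, the inducible enzyme that opens haem to biliverdin, carbon monoxide and iron, has 1 probe set here. It read 10.18, 10.08 and 10.03 in VHL deprived arrays and 9.66, 9.60 and 9.67 in VHL control arrays. In Vec cells it read 11.95, 11.88 and 11.90 in deprived medium and 11.11, 10.95 and 11.44 in control medium. The media did not overlap in either line, as for 22.7% of all genes in Vec cells, and the Vec control arrays spread most (SD 0.25, against 0.04 in Vec deprived arrays). The rise in Vec cells was 0.87 without Vec control replicate 3 and 0.63 without Vec control replicate 2, and stayed called in both cases. The responses differed by -0.29 ± 0.13 (VHL minus Vec, 95% interval -0.57 to 1.6e-04, limma adjusted p = 0.509), so a difference between the lines was not shown.

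SLC11A2, the divalent metal transporter of endosomes and gut epithelium, gave 0.20 ± 0.07 on deprivation in VHL cells (limma adjusted p = 0.082) and 0.08 ± 0.07 in Vec cells (limma adjusted p = 0.633). Its main probe set read 8.64, 8.67 and 8.77 in VHL deprived arrays and 8.55, 8.40 and 8.53 in VHL control arrays. It read 9.71, 9.75 and 9.66 in Vec deprived arrays and 9.55, 9.78 and 9.55 in Vec control arrays. The media did not overlap in VHL cells and did in Vec cells. The response in VHL cells passed the threshold with dim genes left out (limma adjusted p = 0.0492) and with a variance trend and robust moderation (0.0385). The other 3 probe sets gave 0.19, -0.10 and 0.10 in VHL cells and -0.05, -0.08 and 0.19 in Vec cells, none of them called.

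The storage and sensing genes were not called on deprivation. FTL, the ferritin light chain, responded by 0.02 in VHL cells (95% interval -0.07 to 0.10) and by -0.02 in Vec cells (95% interval -0.10 to 0.07). NCOA4, the receptor that takes ferritin to lysosomes, responded by -0.01 in VHL cells (95% interval -0.13 to 0.11) and by -0.10 in Vec cells (95% interval -0.21 to 0.02). ACO1, which is a cytosolic aconitase when it holds an iron-sulfur cluster and an RNA-binding protein without it, responded by 0.05 in VHL cells (95% interval -0.06 to 0.16) and by 0.06 in Vec cells (95% interval -0.05 to 0.17). On the scale of array signal, these intervals exclude changes of the size seen for HMOX1 in both lines. FTL lay near the top of that scale, and the part of a loss of range in its flat response was not tested. Ferritin is controlled chiefly at translation, which arrays do not measure.

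**Figure D2:**
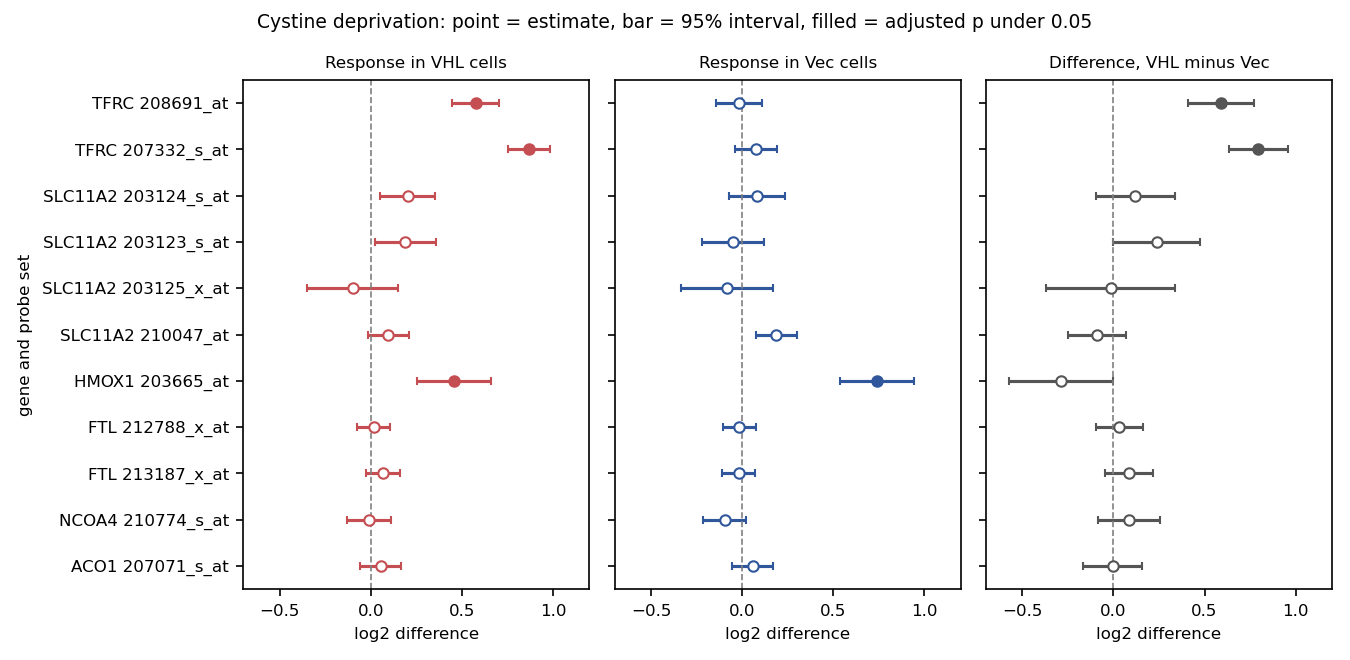
Log2 response to cystine deprivation for each of the 11 probe sets of the 6 genes, in VHL cells, in Vec cells and as the difference VHL minus Vec, with 95% intervals from limma over each probe set. Filled points passed an adjusted p of 0.05: both TFRC probe sets in VHL cells and for the difference, and HMOX1 in both lines.

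Between the lines, the uptake genes and HMOX1 were lower in VHL than in Vec cells in both media. HMOX1 was 3.51-fold lower in deprived medium (log2 -1.81 ± 0.09, limma adjusted p = 3.59e-09) and 2.88-fold lower in control medium (-1.53 ± 0.09, limma adjusted p = 1.95e-08). TFRC was 1.64-fold lower in deprived medium (-0.71 ± 0.06, limma adjusted p = 2.91e-07) and 2.47-fold lower in control medium (-1.30 ± 0.06, limma adjusted p = 1.01e-09). SLC11A2 was 2.02-fold lower in deprived medium (-1.01 ± 0.07, limma adjusted p = 5.72e-08) and 2.19-fold lower in control medium (-1.13 ± 0.07, limma adjusted p = 1.97e-08). In deprived medium 3 of the 6 genes were lower and 1 higher, where 23.0% of all genes were called lower and 24.2% higher. In control medium 3 of the 6 genes were lower, where 23.0% of all genes were called lower and 23.1% higher, and none of the 6 was higher (limma, with 3 of the 6 at an unadjusted p under 0.05 and FTL called higher with a variance trend and robust moderation).

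The line comparison called 46.1% of all genes in control medium and 47.2% in deprived medium, so a call alone says little. The sizes are given as a description only, because the genes were chosen with earlier results of these data known. The main probe sets of the 6 genes also lay between percentiles 74.6 and 99.7 of mean signal, while all genes include many dimmer ones. The median absolute difference of the 6 genes was 0.43 in deprived medium and 0.61 in control medium, beside 0.16 in deprived medium and 0.15 in control medium over all genes. The 2 media are compared with the same 4 groups of arrays as the deprivation responses, so the smaller TFRC gap in deprived medium is the TFRC response difference seen from the other side.

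All probe sets of TFRC and SLC11A2 pointed the same way, but by different amounts. The other TFRC probe set differed by -1.05 in deprived medium and -1.84 in control medium, or 2.07-fold and 3.59-fold lower in VHL cells. For SLC11A2, probe set 203123_s_at gave -0.94 in deprived medium and -1.18 in control medium, 203125_x_at gave -0.51 in deprived medium and -0.49 in control medium, and 210047_at gave -0.29 in deprived medium and -0.20 in control medium. Each of these was called over each probe set. The last of them was dim, with a mean of 6.11 over the 12 arrays. It is also the only SLC11A2 probe set without the suffix _x_at or _s_at, which marks probes that can bind more than 1 transcript.

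The storage genes differed less between the lines. FTL read 14.07, 14.10 and 14.09 in VHL deprived arrays and 13.98, 14.01 and 13.98 in Vec deprived arrays, a difference of 0.10 ± 0.04 (limma adjusted p = 0.0597). In control medium FTL read 14.09, 14.06 and 14.06 in VHL arrays and 14.02, 14.004 and 13.99 in Vec arrays, a difference of 0.07 ± 0.04 (limma adjusted p = 0.202). The lines did not overlap in either medium, as for 54.2% of all genes in deprived and 53.2% in control medium. The other FTL probe set, 213187_x_at, was called in deprived medium (0.13 ± 0.04, limma adjusted p over each probe set = 0.0272) but not in control medium (0.04, limma adjusted p = 0.487). FTL lay near the top of the scale, with 0.36% of all probe sets above it in Vec deprived cells, and both its probe sets end in _x_at.

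NCOA4 read 12.86, 12.91 and 12.94 in VHL deprived arrays and 12.76, 12.78 and 12.68 in Vec deprived arrays, 0.16 ± 0.05 higher in VHL cells (limma adjusted p = 0.027). That call was lost without Vec deprived replicate 3 (limma adjusted p = 0.1) and without VHL deprived replicate 2 (0.0675) or 3 (0.0901). In control medium NCOA4 differed by 0.07 (limma adjusted p = 0.316). ACO1 differed by -0.08 in deprived medium (limma adjusted p = 0.214) and -0.08 in control medium (limma adjusted p = 0.24). Its 12 arrays ran from 9.99 to 10.19, and neighbouring groups in the order of its means overlapped. A ferritin heavy chain pseudogene, FTH1P5, has a probe set that may also bind FTH1 transcripts. It read between 13.68 and 13.86 and was not called in any of the 5 comparisons (limma adjusted p over each probe set of 0.65 or more).

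**Figure D3:**
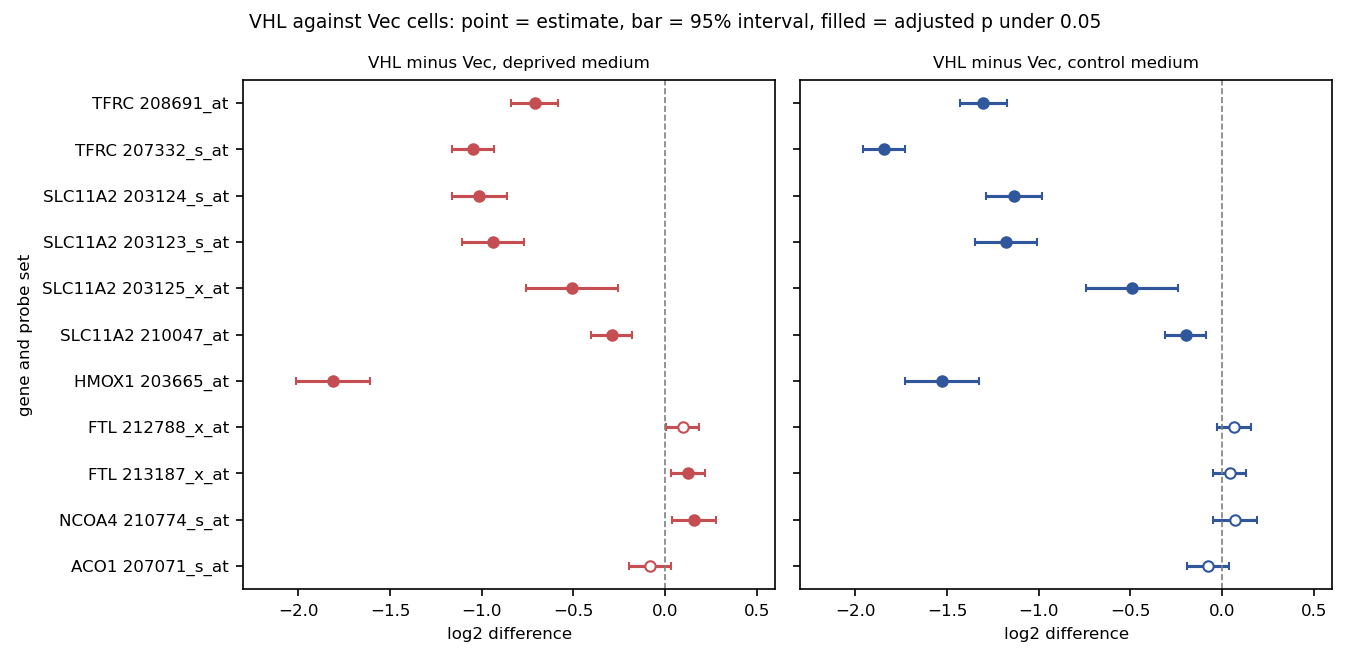
Log2 difference VHL minus Vec for each of the 11 probe sets, in deprived and in control medium, with 95% intervals from limma over each probe set. All probe sets of TFRC, SLC11A2 and HMOX1 lay below 0 and were called (filled), while those of FTL, NCOA4 and ACO1 lay within 0.16 of 0, with 1 FTL probe set and NCOA4 called in deprived medium.

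The genes whose pattern over the 4 group means was closest to TFRC were KLF7, a transcription factor, LIF, a cytokine, and NFIL3, a transcription factor. After each gene was centred on its own mean, they differed from TFRC by a root mean square of 0.07, 0.09 and 0.10 on the log2 scale, where the TFRC pattern itself had 0.54. All 3 were lower in VHL cells in control medium, by -1.14, -1.07 and -1.09, which follows from their choice by pattern. On deprivation they gave 0.41, 0.41 and 0.40 in VHL cells, where TFRC gave 0.57. In Vec cells they gave 0.10, 0.10 and 0.19, where TFRC gave -0.02. Closest to HMOX1 were BCL2A1, a relative of BCL2 that opposes apoptosis, PTGS2, the inducible cyclooxygenase, and CDCP1, a transmembrane protein, at 0.18, 0.19 and 0.20, where HMOX1 itself had 0.89. These likenesses rest on 4 group means of the same 12 arrays.

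Of the other iron genes, 68 were measured of 84 listed. On deprivation 2 rose and 6 fell in VHL cells, 11.8% of the list beside 11.6% of all genes. In Vec cells 1 rose and 2 fell, 4.41% of the list beside 4.18% of all genes, so both shares lay near those over all genes. With a variance trend and robust moderation 13 were called in VHL cells and 6 in Vec cells. The median log2 response was 0.01 in VHL cells and -0.003 in Vec cells, beside 0.01 in VHL cells and 0.01 in Vec cells over all genes. No response differed between the lines by the limma test (8 at an unadjusted p under 0.05, none with a variance trend and robust moderation).

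Of 10 import and reduction genes, 1 rose and 1 fell in each line. SLC39A14 (ZIP14), a transporter of zinc and non-transferrin-bound iron, rose by 0.30 ± 0.05 in VHL cells (limma adjusted p = 0.00289) and by 0.24 ± 0.05 in Vec cells (limma adjusted p = 0.0252). SLC39A8 (ZIP8), its close relative, changed by -0.39 ± 0.06 in VHL cells (limma adjusted p = 9.05e-04, or -0.20 with 0.0124 when its probe sets were averaged) and by -0.23 ± 0.06 in Vec cells (limma adjusted p = 0.0474). In Vec cells SLC39A14 kept its call without Vec control replicate 3 but not when any other of the 6 arrays was left out (limma adjusted p 0.065 to 0.102), and SLC39A8 lost its call whichever array was left out (0.0672 to 0.173). SLC39A14 and STEAP1, a membrane protein of the STEAP family, were lower in VHL than in Vec cells, by -0.55 and -1.09 in deprived medium and by -0.62 and -1.27 in control medium.

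FBXL5, the iron-binding ubiquitin ligase subunit that marks IREB2 for degradation, changed by -0.34 ± 0.07 in VHL cells (limma adjusted p = 0.00623) and by -0.21 ± 0.07 in Vec cells (limma adjusted p = 0.106). With _x_at and _s_at probe sets left out it gave -0.15 in VHL cells (limma adjusted p = 0.355). In Vec cells its response passed the threshold with a variance trend and robust moderation (limma adjusted p = 0.0364). FBXL5 was the only 1 of 11 chaperone and sensing genes called on deprivation in the main fit. In VHL cells BACH1 gave 0.27 (limma adjusted p = 0.0616) and HIF1A gave -0.24 (0.0723). HIF1A passed the threshold there with dim genes left out (limma adjusted p = 0.044). FBXL5 was also lower in VHL than in Vec cells, by -0.47 ± 0.07 in deprived medium (limma adjusted p = 5.01e-05) and by -0.34 ± 0.07 in control medium (limma adjusted p = 7.11e-04, or 0.0517 with _x_at and _s_at probe sets left out). In the same list EPAS1, the alpha subunit of HIF-2, was lower in VHL cells, by -0.78 in deprived and -0.87 in control medium, and HIF1A was higher, by 0.73 in deprived and 0.98 in control medium. NFE2L2, the transcription factor NRF2 that acts on HMOX1 and both ferritin genes, was higher by 0.37 in deprived and 0.47 in control medium.

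Among 10 genes of haem transport and breakdown, BLVRA, the reductase that follows HMOX1, changed by -0.16 ± 0.05 in VHL cells (limma adjusted p = 0.0359), a call lost without any 1 of the 6 arrays (0.0713 to 0.106) and, at -0.11, when its probe sets were averaged (0.175). HMOX2, the constitutive haem oxygenase, gave -0.16 in VHL cells (limma adjusted p = 0.112) and -0.12 in Vec cells (limma adjusted p = 0.375). BLVRB, the second biliverdin reductase, went the other way, by 0.24 ± 0.07 in VHL cells (limma adjusted p = 0.0546), with 0.01 in Vec cells (0.968). In VHL cells its response passed the threshold under 4 alternatives (limma adjusted p 0.0166 to 0.0387). BLVRB and SLC48A1, a haem transporter, were higher in VHL than in Vec cells, by 0.97 and 0.56 in deprived medium and by 0.74 and 0.68 in control medium. Of 9 haem synthesis genes CPOX, an enzyme late in the pathway, changed by -0.39 ± 0.09 in VHL cells (limma adjusted p = 0.0129), and was not called without VHL control replicate 1 (0.0591) or VHL deprived replicate 1 (0.0551). In that list 2 genes were higher and 5 lower in VHL than in Vec cells in deprived medium, and 2 higher and 4 lower in control medium, where 23.0% of all genes were called lower in each medium and 24.2% higher in deprived and 23.1% higher in control medium. ALAS1, which makes the first precursor of haem, differed by -0.67 in deprived and -0.66 in control medium, and FECH, which inserts the iron, by 0.57 in deprived and 0.60 in control medium.

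Of 16 genes of mitochondrial iron and iron-sulfur clusters, CIAPIN1, a cytosolic cluster assembly protein, changed by -0.26 ± 0.05 in VHL cells (limma adjusted p = 0.00712) and by -0.19 ± 0.05 in Vec cells (limma adjusted p = 0.0579). The CIAPIN1 response in Vec cells passed the threshold under 4 alternatives (limma adjusted p 0.0146 to 0.0353). CISD1 (mitoNEET), of the outer mitochondrial membrane, changed by -0.14 ± 0.04 (limma adjusted p = 0.0485), a call lost without any 1 of the 6 arrays (0.0834 to 0.123). ISCU, the scaffold on which clusters are built, was higher in VHL than in Vec cells by 0.91 ± 0.04 in deprived medium (limma adjusted p = 1.45e-09) and 0.89 ± 0.04 in control medium (limma adjusted p = 1.79e-09). NFS1, the desulfurase that draws sulfur for the clusters from cysteine, was lower by -0.43 in deprived and -0.46 in control medium.

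Of 12 genes of export and the hepcidin axis, SMAD7, an inhibitor of BMP signalling, rose by 0.27 ± 0.06 in VHL cells (limma adjusted p = 0.0149), but missed the threshold once VHL control replicate 1 was left out (0.0629). BMP2, a ligand that induces hepcidin in liver, changed by -0.35 ± 0.09 in Vec cells (limma adjusted p = 0.0485), a call kept without Vec deprived replicate 1 and lost without each of the other 5 arrays (0.0622 to 0.177). CP, the plasma ferroxidase ceruloplasmin, was lower in VHL than in Vec cells by -0.70 in deprived and -0.71 in control medium. HFE, a partner of TFRC at the cell surface, was higher by 0.83 in deprived and 0.69 in control medium, or by 0.34 in deprived and 0.32 in control medium when its probe sets were averaged, still called.

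**Figure D4:**
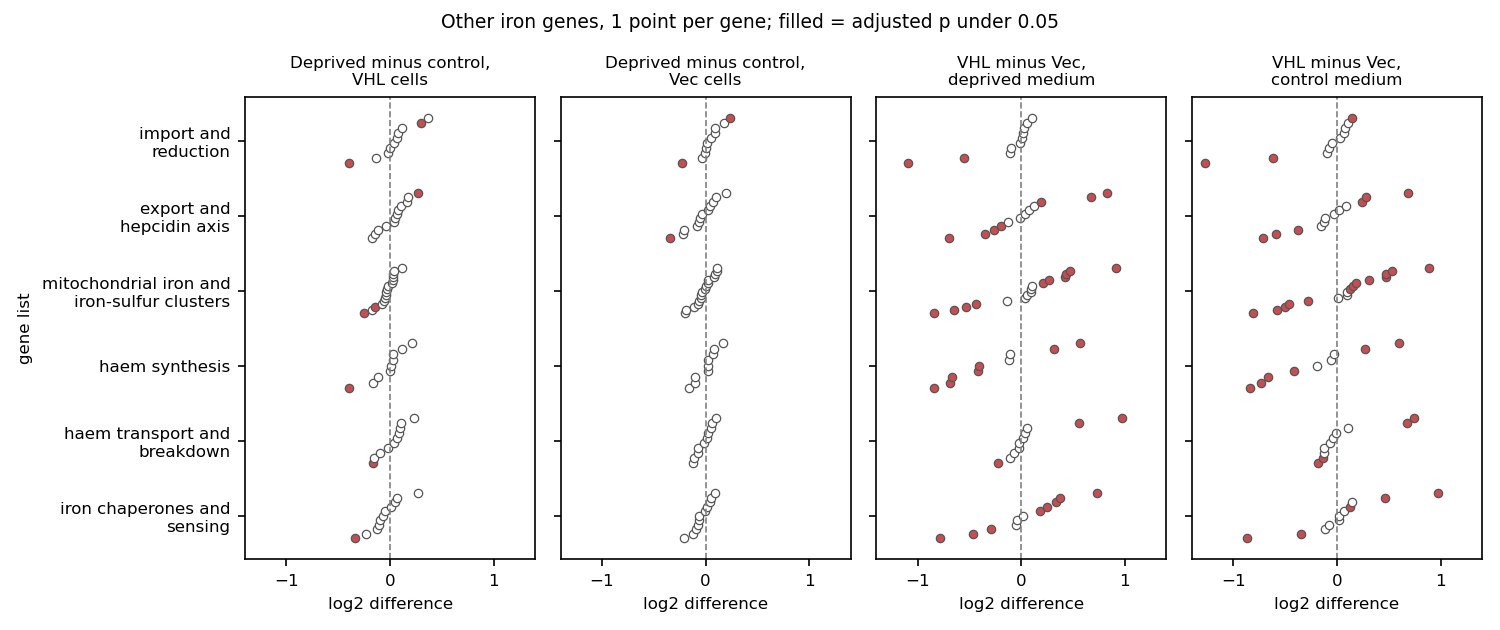
Log2 difference of each other iron gene (1 point per gene), by list, for deprivation in VHL and in Vec cells and for VHL minus Vec in deprived and in control medium. Filled points passed an adjusted p of 0.05: 8 of 68 in VHL cells (11.6% of all genes) and 3 of 68 in Vec cells (4.18% of all genes) on deprivation, and 37 of 68 in each comparison of the lines (47.2% of all genes in deprived and 46.1% in control medium).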

How the data were processed

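The deposited values are log2 expression per probe set on 12 single-colour arrays, with units read from the values, since the authors' normalization is not given in the sources used here. Per the labels, biotin-labelled targets were made from column-purified total RNA with the MessageAmp Premier kit. Of 22215 probe sets, 19064 named 1 gene, 1043 several and 2108 none. RefSeq (GRCh38.p14) supplied current symbols for 19052 of them, and 11963 genes resulted, the brightest probe set standing for each. Values were used without further scaling or filter.

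Group means were fitted in limma 3.58.1 under R 4.3.3 (8 residual degrees of freedom, 12.7 after moderation), with two-sided moderated tests, and the script was tested on simulated data. The 5 comparisons were deprivation in each line, the difference of the responses, and the line comparison in deprived and in control medium. The rule for naming other iron genes took those called on deprivation, and otherwise up to 4 per list by smallest adjusted p. Not every gene that it picked for the line comparisons is given, and HMOX2, BACH1 and KEAP1 were named outside it. The 9 genes, lists and tests were chosen with earlier results of these data known. The number of arrays limits the precision. Alternatives were other scalings, probe set choices, filters, variance models and samples. Protein sequences were not used here.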

Additional observations from a re-analysis of the deposited data

Results flagged for a closer look

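The TFRC responses to cystine loss differed between the lines by 0.59 ± 0.08 on the log2 scale (VHL minus Vec, limma adjusted p = 0.01, n = 3 per group), with a response of 0.57 in VHL cells and -0.02 in Vec cells. It stands here because the interaction of line and medium was tested and passed the threshold. All 3 deprived arrays lay above the control arrays in VHL cells. Over 20 alternatives the difference ran from 0.56 to 0.69 with adjusted p-values from 3.24e-05 to 0.045, and the second TFRC probe set gave 0.80. The brightness of TFRC in Vec cells was not tested as a limit on this value.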

How the results depend on the processing

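The count of the 6 iron genes called in each comparison stayed within 1.5 times its value under every alternative run, and no call of a gene among them reversed. Of 465 values of single members under alternatives, 3 lost their call, all NCOA4 in deprived medium between the lines, and 7 gained one, all SLC11A2 in VHL cells or FTL between the lines. Counts over all genes moved more. In Vec cells 500 genes became 311 with only the groups compared, 233 with _x_at and _s_at probe sets left out, and 253 to 303 when single arrays were left out. In VHL cells 1392 became 835, 771 and 764 to 1302 under the same 3 changes, with 764 without VHL control replicate 1, 849 without VHL control replicate 2 and 822 without VHL deprived replicate 1. The difference of the responses called 45 genes with a variance trend and robust moderation, against 16. With _x_at and _s_at probe sets left out, the line comparison called 3505 genes in deprived medium and 3427 in control medium, where fewer genes were tested. The replicate numbers do not pair the arrays by any label, and the correlation of residuals for same-numbered arrays ran from -0.268 to 0.235 (median 0.05, 18 pairs). For arrays of other numbers it ran from -0.350 to 0.291 (median -0.02, 36 pairs). Of the 12 arrays, 5 correlated most with a same-numbered array among those of the other groups. With the replicate number as a block, 434 genes were called in Vec cells, 1326 in VHL cells and 16 for the difference, and TFRC kept its response difference of 0.59 (limma adjusted p = 0.039). For the 28 other iron genes that the naming rule picked, 60 called differences were recomputed 878 times: 800 kept their call and 78 lost it, of which 3 reversed. Differences not called were recomputed 1307 times and gained a call in 20. The reversals were these: SLC39A8 in control medium between the lines was -0.0665 when its probe sets were averaged, and SMAD6 gave -0.205 in deprived and -0.0589 in control medium with _x_at and _s_at probe sets left out (the cause was not tested).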
